A study of Mus musculus with 10 samples.

Results

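The core circadian clock of liver was followed through 10 genes: Arntl, Clock and Npas2 of the positive arm, Nr1d1, Nr1d2, Per1, Per2, Per3 and Cry1 of the negative arm, and the output gene Dbp. They were chosen by symbol, and each symbol matched 1 locus of a table of 23847 loci. RNA sequencing values were available for 6 libraries of mouse liver taken 40 h after partial hepatectomy. In 3 of them (KO, Arid1a Fl/Fl with Alb-cre) the floxed Arid1a gene is deleted where the albumin promoter drives Cre. Arid1a encodes a subunit of the SWI/SNF chromatin remodeller. The other 3 (WT) carried Arid1a Fl/Fl without Alb-cre. All came from mice of a C57/B6 and 129 mix at postnatal day 90, and 4 further libraries from before surgery, 2 KO and 2 WT, were not analysed here. The labels give hours since surgery but no time of day at death, and they do not say whether each library is a separate mouse. If it is not, the p-values below measure only the spread between libraries.

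The mammalian clock is a transcriptional feedback loop. BMAL1 (encoded by Arntl) pairs with CLOCK or its relative NPAS2, binds E-box elements, and switches on the Per, Cry and Nr1d genes as well as Dbp. PER and CRY proteins then inhibit that pair, while REV-ERB proteins (encoded by Nr1d1 and Nr1d2) repress Arntl, Npas2 and Clock through ROR elements, so that in mouse liver the transcripts of the positive arm peak at the opposite time of day to those of Nr1d1 and Dbp. DBP binds D-box elements and passes the rhythm on to genes of metabolism.

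These elements were looked for in RefSeq windows (GRCm38.p6) reaching from 250 bases before to 50 bases after each annotated start. Windows were held for 9 of the 10 genes, and Per2 was not searched. The stretches below are shown because they hold the letters through which one clock gene is known to act on another. Capitals mark the match, and each line runs 5′ to 3′ on the strand of its gene. Positions count from the RefSeq start of the window shown. That start can differ from the start of the locus given further below, as it does for Arntl, Nr1d1, Per1 and Per3. The end of the Nr1d1 window was not found near the start of any GENCODE M21 transcript of that gene.
Per1, chr11:69098759-69098818, plus strand, bases -190 to -131, with 1 E-box: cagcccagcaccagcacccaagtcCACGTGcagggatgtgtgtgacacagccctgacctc
Cry1, chr10:85185095-85185154, minus strand, bases -100 to -41, with an E-box variant and an E-box: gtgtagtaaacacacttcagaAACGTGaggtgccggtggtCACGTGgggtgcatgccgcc
Nr1d1, chr11:98775378-98775432, minus strand, bases -55 to -1, with an E-box variant: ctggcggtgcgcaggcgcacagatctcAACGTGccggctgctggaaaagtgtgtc
Per3, chr4:151044796-151044885, minus strand, bases -220 to -131, with 2 D-boxes: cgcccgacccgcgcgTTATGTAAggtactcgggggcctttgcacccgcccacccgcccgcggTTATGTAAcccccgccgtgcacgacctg
Arntl, chr7:113207529-113207558, plus strand, bases 19 to 48, with 1 ROR element: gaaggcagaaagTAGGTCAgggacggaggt

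The E-box CACGTG was found near the starts of Per1 and Cry1 and in 7.15% of all 32851 windows, searched on both strands. Its variant CACGTT, read as AACGTG on the opposite strand, was found for Cry1 and Nr1d1 and in 4.68% of windows. The D-box, searched as TTATGTAA or TTACGTAA, was found for Per3 alone among the 9 genes and in 1.06% of windows. The ROR element, searched as TAGGTCA, was found for Arntl alone and in 2.61% of windows. The letters TGACGTCA of the cAMP response element were in no member's window and in 1.79% of all windows. These are matches of letters, not measured binding sites.

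Levels are the authors' deposited FPKM, read fragments scaled to the length of the transcript and to the mapped total of the library. They summed to between 409142 and 495209 per library, and 14874 to 15287 loci were above the floor. Absolute depth is unknown. Relative to WT replicate 1, it was read from whole-number ratios between low values as 0.844 in KO replicate 3 up to 1.22 in WT replicate 3. Arid1a was 4.41, 5.57 and 6.15 FPKM in KO libraries and 8.68, 8.45 and 8.49 FPKM in WT libraries, lower in every KO library (log2 difference -0.59, limma adjusted p = 0.207). All 7 hepatocyte markers were found, and their summed level was 38468 to 48224 FPKM in KO and 41430 to 48333 FPKM in WT. The summed level of 7 Kupffer cell and macrophage markers was 75.3 to 129 FPKM in KO and 67.5 to 92.7 FPKM in WT. That of 7 sinusoidal endothelial markers was 45.0 to 65.0 FPKM in KO and 40.6 to 63.0 FPKM in WT, and that of 7 stellate cell markers 84.8 to 147 FPKM in KO and 117 to 122 FPKM in WT. The 5 cholangiocyte markers summed to 12.5 to 28.9 FPKM in KO and 12.1 to 21.1 FPKM in WT. The 6 lymphocyte and NK cell markers summed to 0.328 to 0.968 FPKM in KO and 0.370 to 1.31 FPKM in WT, with 0 to 4 of them at 0 in a library. In whole tissue, fewer cells of a type and less RNA per cell cannot be told apart, and the part of cell makeup in the clock values was not tested.

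The comparison asks whether loss of Arid1a through Alb-cre alters clock transcripts in the regenerating liver. All 10 genes passed the filter of a mean of at least 1 FPKM and were tested on log2(FPKM + 1) with limma, adjusted over the 10956 loci tested. None of the 10 was called at an adjusted p under 0.05, where 0.119% of all loci tested were called (13 loci). None had an unadjusted p under 0.05 with all 6 libraries, against 15.2% of all loci, and for none did the KO and WT libraries lie apart, against 22.1% of all loci. The smallest adjusted p among the 10 was 0.439, for Per2. As deposited, the median log2 difference over all loci was 0.15, so a gene at that value stood at the middle of the table, and the differences below are not corrected for this shift.

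**Figure D1:**
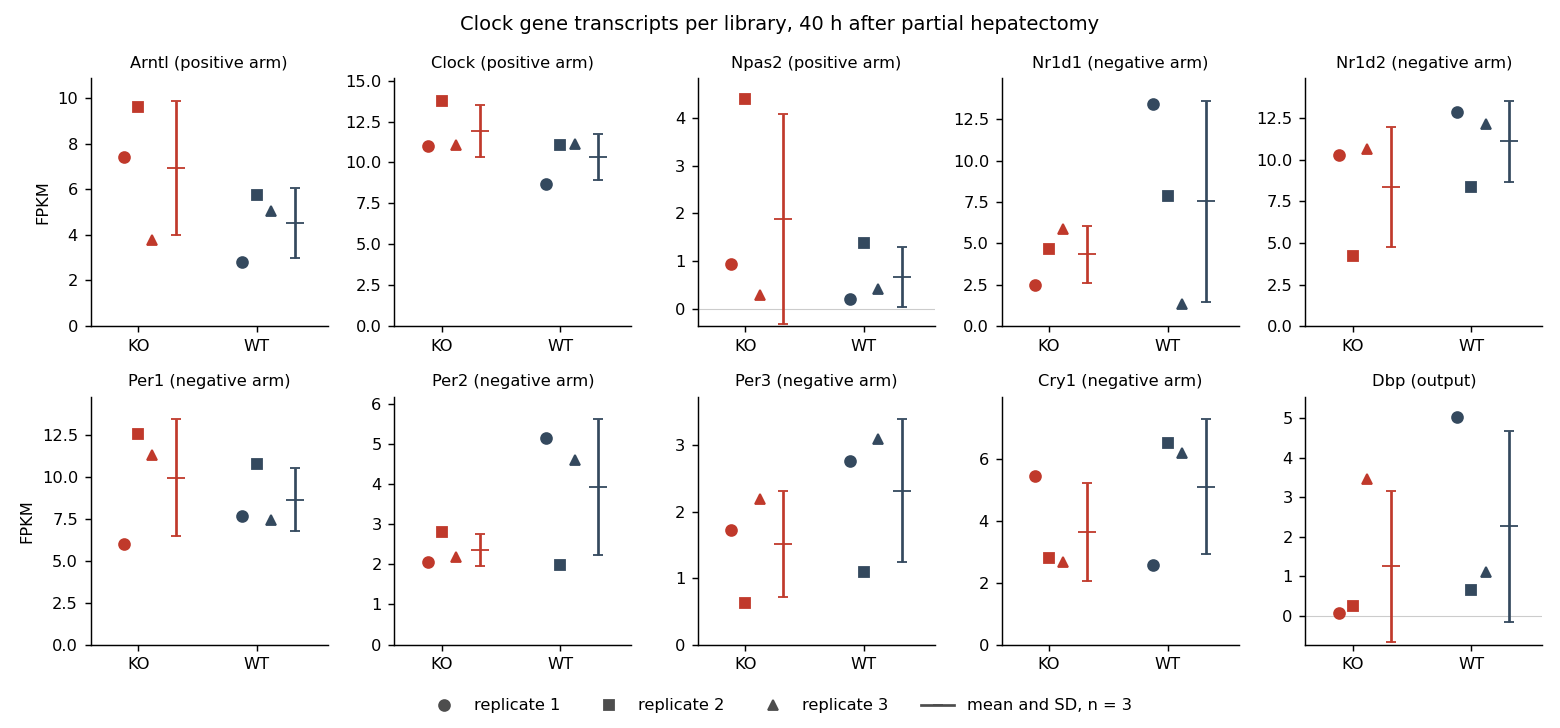
FPKM of the 10 clock genes in each library, KO in red on the left and WT in dark blue on the right, with replicate numbers as marker shapes and the mean with SD (n = 3) beside each group. KO and WT points overlap in all 10 panels, and the highest or lowest point is most often WT replicate 1 or KO replicate 2.

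Arntl (chr7:113207465-113314126, mm10) encodes BMAL1, the partner that the loop cannot do without. It was 7.40, 9.60 and 3.77 FPKM in KO replicates 1, 2 and 3 and 2.81, 5.73 and 5.04 FPKM in WT replicates 1, 2 and 3. The highest values were those of KO replicates 1 and 2, but KO replicate 3 lay below 2 of the WT libraries. The log2 difference was 0.48 (95% interval -0.34 to 1.31, adjusted p = 0.516). Clock (chr5:76212177-76304548) encodes the usual partner of BMAL1 and was the steadiest of the 10, at 11.0, 13.8 and 11.0 FPKM in KO and 8.70, 11.1 and 11.1 FPKM in WT. Its interval was also the narrowest of the 10, -0.20 to 0.58 around a log2 difference of 0.19. That difference is close to the median of all loci, 0.15, and was 0.054 after median-of-ratios and 0.0043 after quantile scaling.

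Npas2 (chr1:39194272-39363240) encodes a relative of CLOCK that can take its place beside BMAL1. It was 0.944, 4.39 and 0.293 FPKM in KO and 0.200, 1.37 and 0.424 FPKM in WT. KO replicate 2 stood far above the other libraries, and the level in that library was 21.9 times that in WT replicate 1. The mean was 1.88 ± 2.20 FPKM in KO and 0.666 ± 0.623 FPKM in WT (SD, n = 3 each), so the spread exceeded the mean in KO. The log2 difference was 0.58 (95% interval -0.72 to 1.88), and without KO replicate 2 the gene fell below the filter and was not tested. KO replicate 2 alone brought its mean over the filter, so the log2 difference of Npas2 is given as a description. For Arntl, the log2 difference was 0.24 without KO replicate 2 and 0.24 without WT replicate 1, and 0.81 without KO replicate 3 (unadjusted p = 0.0300, adjusted p = 0.441).

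Among the repressors of Arntl, Nr1d1 (chr11:98767935-98775242), which encodes REV-ERB alpha, varied most. It was 2.46, 4.69 and 5.87 FPKM in KO and 13.4, 7.86 and 1.30 FPKM in WT, so both the highest and the lowest library were WT. The log2 difference was -0.37 with an interval from -1.94 to 1.19, and without WT replicate 1 it was 0.18, of the opposite sign. Without WT replicate 3 it was -1.14 (unadjusted p = 0.0207, adjusted p = 0.292). In GENCODE M21 the end of Nr1d1 overlaps the opposite-strand gene Thra, which was 1.56 to 3.66 FPKM in KO and 2.43 to 2.57 FPKM in WT. Nr1d2 (chr14:18204056-18239106), which encodes REV-ERB beta, was 10.3, 4.21 and 10.7 FPKM in KO and 12.9, 8.35 and 12.2 FPKM in WT. The library with the most Npas2 and Arntl, KO replicate 2, had the least Nr1d2, and without it the log2 difference of Nr1d2, -0.44, was -0.059.

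Of the Period genes, whose products inhibit BMAL1 and its partner, Per1 (chr11:69098956-69109957) was 6.03, 12.6 and 11.3 FPKM in KO and 7.67, 10.8 and 7.43 FPKM in WT. It was the single negative-arm gene with a positive log2 difference, 0.15 (95% interval -0.52 to 0.82), which is the median of all loci. Its sign turned after quantile normalization (-0.030) and without KO replicate 2 (-0.034). Per2 (chr1:91415982-91459328) was 2.06, 2.81 and 2.18 FPKM in KO and 5.15, 1.99 and 4.61 FPKM in WT. The KO libraries lay close together, near the lowest WT library and below the other two (log2 difference -0.49, 95% interval -1.18 to 0.20). The difference was -0.30 without WT replicate 1 and -0.82 without WT replicate 2 (unadjusted p = 0.00442, adjusted p = 0.326).

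Per3 (chr4:151003655-151044622) was 1.72, 0.628 and 2.20 FPKM in KO and 2.77, 1.09 and 3.09 FPKM in WT. Replicate 2 was the lowest library of each genotype. In GENCODE M21, Per3 shares 41014 bases with the same-strand gene Camta1, more than the length of the deposited Per3 locus. No other deposited locus with values overlaps Per3, and the part of Camta1 reads in its values was not tested. Per3 and Nr1d2 ranked the libraries alike, except that WT replicates 1 and 3 changed places at the top. Cry1 (chr10:85131700-85185054), which encodes a cryptochrome that inhibits BMAL1 and its partner, was 5.46, 2.78 and 2.68 FPKM in KO and 2.58, 6.51 and 6.18 FPKM in WT. The values fell into a low set of KO replicates 2 and 3 with WT replicate 1 and a high set of KO replicate 1 with WT replicates 2 and 3. The log2 differences were -0.40 for Per3 and -0.37 for Cry1, and both intervals included 0 (adjusted p = 0.599 and 0.625). With 1 library left out, the difference of Per3 ranged from -0.70 without WT replicate 2 to -0.11 without KO replicate 2. That of Cry1 ranged from -0.71 without WT replicate 1 (unadjusted p = 0.0504) to -0.18 without WT replicate 2.

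Dbp (chr7:45705247-45710203) encodes a D-box activator and is among the most rhythmic transcripts of mouse liver. It was 0.0554, 0.233 and 3.45 FPKM in KO and 5.04, 0.651 and 1.09 FPKM in WT. The level in WT replicate 1 was 91.0 times that in KO replicate 1, the widest range of the 10 genes. High values occurred in both genotypes, in KO replicate 3 and WT replicate 1. Values under 0.3 FPKM rest on a few reads, so the 2 lowest KO values are imprecise. The log2 difference was -0.62 (95% interval -2.25 to 1.02, adjusted p = 0.677). It was -0.05 without WT replicate 1 and -1.27 without KO replicate 3. The Dbp locus shares 741 of its 4957 bases with Sphk2, which was 4.62, 7.23 and 7.35 FPKM in KO and 8.29, 3.93 and 5.33 FPKM in WT, a range of 2.11 times.

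**Figure D2:**
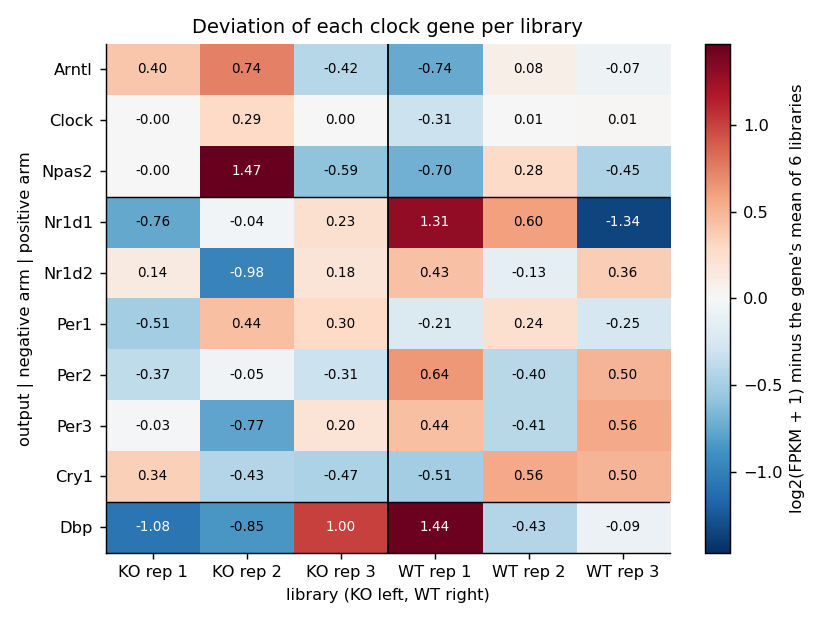
Deviation of each clock gene in each library from that gene's mean over the 6 libraries, in log2(FPKM + 1), with KO libraries on the left and WT libraries on the right. KO replicate 2 has the highest positive arm (Npas2 at 1.47), and KO replicate 3 and WT replicate 1 have the highest Dbp and the lowest Npas2 (-0.59 and -0.70).

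Read library by library, most of the extreme values came from 1 library of each genotype. KO replicate 2 held the highest value of the 6 for 4 genes (Arntl, Clock, Npas2 and Per1) and the lowest for 2 (Nr1d2 and Per3). WT replicate 1 held the lowest value for 4 genes (Arntl, Clock, Npas2 and Cry1) and the highest for 4 (Nr1d1, Nr1d2, Per2 and Dbp). KO replicate 3 was at neither end for any gene. WT replicate 1 also had the lowest median deviation over all loci tested, but by only -0.11 on the log2(FPKM + 1) scale.

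The mean log2(FPKM + 1) over the positive arm was 2.54, 3.24 and 2.07 in KO and 1.82, 2.53 and 2.24 in WT. Over the negative arm it was 2.31, 2.20 and 2.53 in KO and 2.86, 2.58 and 2.56 in WT. The KO values of the negative arm all lay below the WT values, narrowly so between KO replicate 3 and WT replicate 3. Among the 10956 single loci tested, 22.1% lay apart, with KO below WT at 596. No such share was computed for means over 6 genes. The order of the negative arm was kept with a pseudocount of 0.1 and after median-of-ratios or quantile scaling, which reuse the same libraries. After these 2 scalings, KO minus WT of the negative arm went from -0.32 to -0.44 and -0.47. That of the positive arm, where the libraries overlapped, went from 0.42 to 0.31 and 0.27. The positive arm minus the other 7 genes was 0.55, 1.31 and -0.40 in KO and -0.99, 0.22 and -0.11 in WT, a mean of 0.49 ± 0.86 in KO and -0.30 ± 0.63 in WT (SD, n = 3 each). Its ends were KO replicate 2 and WT replicate 1, while KO replicate 3 lay between WT libraries. The difference of the means was 0.78. It was 0.37 without KO replicate 2 and 1.23 without KO replicate 3, the ends of its range with 1 library left out. No test was made on these means, because the genes were chosen with earlier results in view. The positive arm includes Npas2, which passed the filter only through KO replicate 2.

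**Figure D3:**
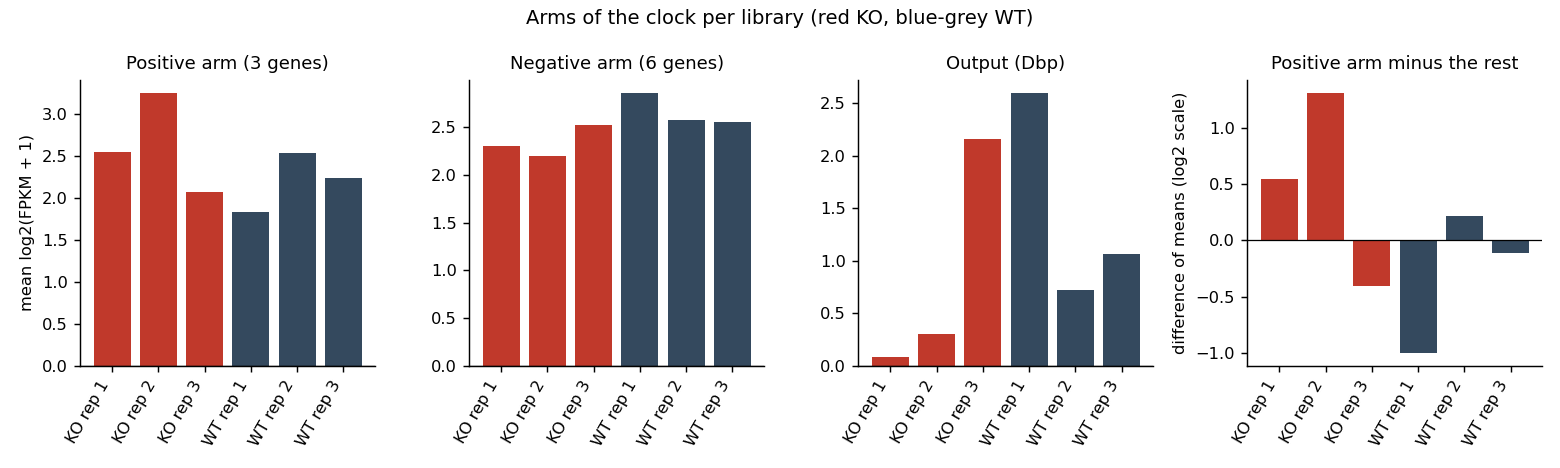
Mean log2(FPKM + 1) of the positive arm, of the negative arm and of Dbp per library, and the positive arm minus the other 7 genes on the log2 scale, with KO bars in red on the left and WT bars in dark blue on the right. The difference is highest in KO replicate 2 (1.31) and lowest in WT replicate 1 (-0.99), and KO replicate 3 (-0.40) lies among the WT bars.

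Distance between libraries over the 10 genes, was measured as the root mean square of the log2 differences, a measure chosen once the values were known. The nearest library of all 6 was one of the other genotype. KO replicate 3 and WT replicate 1 were nearest to each other (0.53), KO replicate 1 was nearest to WT replicate 3 (0.55), and KO replicate 2 to WT replicate 2 (0.67). Of the 5 possible partners of a library, 3 are of the other genotype. Over all 10956 loci tested, the nearest library was of the other genotype for 1 of 6, KO replicate 2. The libraries share their depth and scaling in both measures, and no test was made.

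Within a genotype the clock genes varied more than most genes. The SD of log2(FPKM + 1) among libraries of the same genotype was above the median of all loci for 9 of the 10, with a median of 0.52 over the 10 genes. It was 0.25 over all loci tested and 0.24 over the 6665 loci whose mean FPKM lay within the range of the 10. Dbp (1.07), Nr1d1 (1.04) and Npas2 (0.83) varied most, and Clock (0.18) was the exception. A p that misses the threshold does not show that the genotypes have the same clock.

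**Figure D4:**
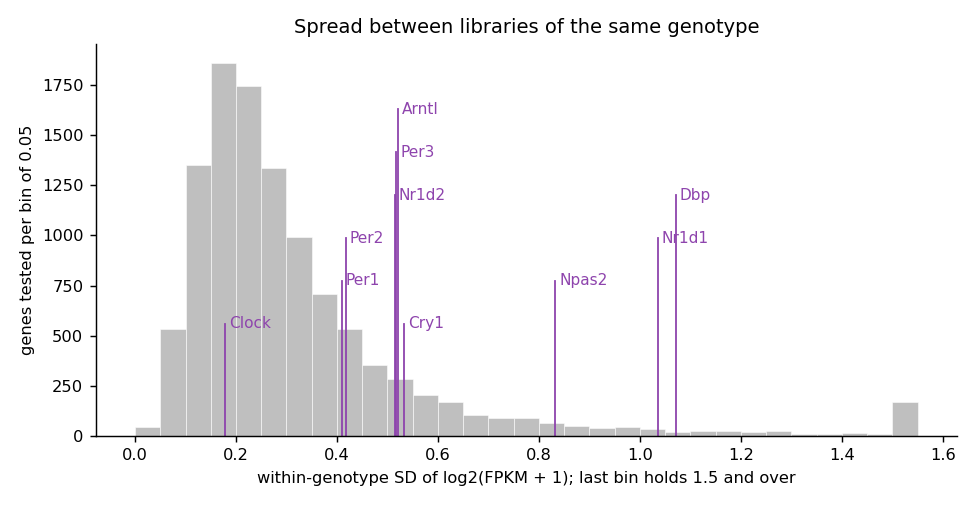
Histogram of the within-genotype SD of log2(FPKM + 1) over all loci tested (grey, bins of 0.05), with the 10 clock genes as purple lines. Clock, at 0.18, is on the left side of the histogram, and Npas2, Nr1d1 and Dbp, from 0.83 to 1.07, are in its right tail.

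The other clock components were read from a list of 19 genes, of which 16 passed the filter and Arntl2, Rorb and Bhlhe41 did not. None was called by limma, and 1 of 16 had an unadjusted p under 0.05, where 15.2% of all loci did. That gene was Ciart, which passed the filter only through the WT libraries, so its place in these counts is a description. Of the 16, 9 had a positive and 7 a negative log2 difference, and the list median was 0.03. KO and WT libraries lay apart for 2 of the 16, Ciart with KO below WT and Csnk1d with KO above it. Of all 10956 loci tested, 22.1% did not overlap, with KO below WT at 596 and above it at 1828. Ciart, which encodes the BMAL1 repressor CHRONO, was 0.0686, 0.0722 and 0.534 FPKM in KO and 3.42, 0.558 and 1.36 FPKM in WT. Every KO library was below every WT library, by a narrow margin between KO replicate 3 and WT replicate 2. Its mean over the 6 libraries, 1.001 FPKM, was barely inside the filter, and only the WT libraries brought it there (0.225 ± 0.268 FPKM in KO and 1.78 ± 1.48 FPKM in WT, SD, n = 3 each). A gene that enters in this way has to differ, so its log2 difference of -1.07 (adjusted p = 0.306) is given as a description. A pair of the KO values are in the range of a few reads.

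The Ciart start carries 3 E-boxes within 90 bases, a stretch shown because no other clock gene searched had as many.
Ciart, chr3:95882264-95882353, minus strand, bases -125 to -36: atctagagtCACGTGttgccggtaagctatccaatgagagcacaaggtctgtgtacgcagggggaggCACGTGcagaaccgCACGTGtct

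Csnk1d, which encodes a casein kinase that phosphorylates PER proteins, was 14.7, 14.8 and 13.8 FPKM in KO and 12.1, 12.1 and 11.9 FPKM in WT. It was higher in every KO library, but by a log2 difference of 0.24 (adjusted p = 0.384), close to the shift of all loci. The ubiquitin ligase subunit gene Btrc was 1.89 ± 0.391 FPKM in KO and 1.21 ± 0.383 FPKM in WT, and Fbxl21, which encodes a relative of the cryptochrome ligase, was 1.37 ± 0.325 FPKM in KO and 2.28 ± 0.854 FPKM in WT (SD, n = 3 each). Neither passed the test (adjusted p = 0.385 and 0.387). Tef encodes a relative of DBP and is named here because of its values. It was 9.75, 4.73 and 12.3 FPKM in KO and 14.9, 7.89 and 14.4 FPKM in WT. That is the order of libraries found for Nr1d2.

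**Figure D5:**
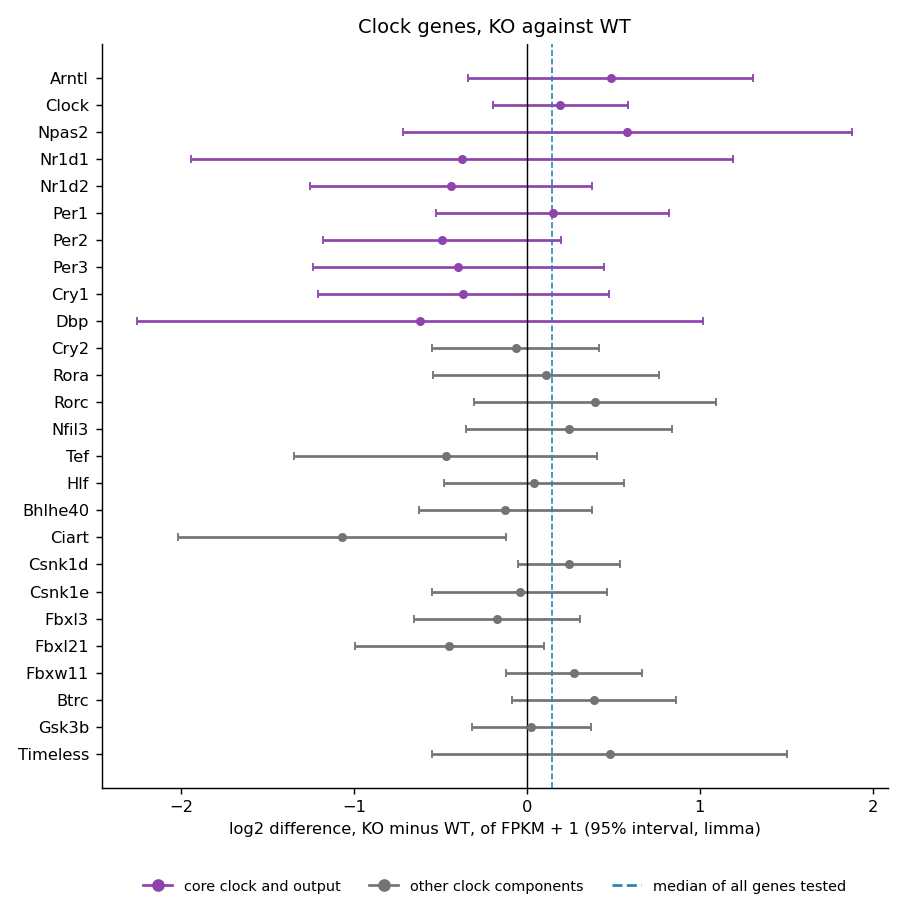
Log2 differences of FPKM + 1, KO minus WT, with 95% intervals from limma for the 10 core clock and output genes (purple) and 16 other clock components (grey). The intervals of all 10 purple genes include 0. The dashed line is the median of all loci tested, 0.15, and Ciart (-1.07) is farthest from it.

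Downstream of the clock, 18 genes known to cycle in mouse liver were listed, and 17 passed the filter. None was called by limma, and 6 had an unadjusted p under 0.05, where 15.2% of all loci did. The list median was -0.34, with 6 positive and 11 negative differences, beside a median of 0.15 over all loci. KO and WT lay apart for 5 of the 17, with KO below WT for 4 and above it for 1. Of all 10956 loci tested, 22.1% did not overlap, with KO below WT at 596 and above it at 1828. Por, the electron donor of cytochrome P450 enzymes, was 92.4, 86.5 and 119 FPKM in KO and 252, 135 and 165 FPKM in WT (log2 difference -0.85, SE 0.27, adjusted p = 0.271). Tspan4, a tetraspanin gene, was 27.8, 22.1 and 29.1 FPKM in KO and 41.4, 38.7 and 46.0 FPKM in WT (log2 difference -0.66, SE 0.17, adjusted p = 0.208). Both were lower in every KO library, without passing the test. The other 2 below WT, named for that reason, were Gys2, which encodes liver glycogen synthase, at 25.7 ± 3.78 FPKM in KO and 33.1 ± 2.99 FPKM in WT, and the fatty acid sensor gene Ppara, at 21.8 ± 3.78 FPKM in KO and 30.8 ± 3.91 FPKM in WT (SD, n = 3 each).

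Cyp2a5, a P450 gene with a near-identical neighbour that makes its reads uncertain, was 18.6 ± 11.4 FPKM in KO and 52.0 ± 20.6 FPKM in WT (adjusted p = 0.298). The cell cycle inhibitor gene Cdkn1a was 43.1, 40.2 and 49.6 FPKM in KO and 8.25, 27.8 and 16.3 FPKM in WT, higher in every KO library (log2 difference 1.44, SE 0.39, adjusted p = 0.220). Mean log2(FPKM + 1) over 10 mitosis markers was 4.54, 1.04 and 5.19 in KO and 1.19, 0.79 and 2.16 in WT. KO replicates 1 and 3 were highest in mitosis markers. The part of cell division in the clock values was not tested.

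Genes that answer to glucocorticoids or body temperature, signals that set the liver clock, were listed as well. None of the 10 glucocorticoid-responsive genes was called by limma, and none had an unadjusted p under 0.05. Of all 10956 loci tested, 22.1% did not overlap, with KO below WT at 596. The genotypes lay apart for 2 of the 10 glucocorticoid-responsive genes, both with KO below WT and by narrow margins. These were Pck1 of gluconeogenesis, at 647 ± 71.4 FPKM in KO and 727 ± 18.6 FPKM in WT, and the EGF receptor inhibitor gene Errfi1, at 295 ± 4.56 FPKM in KO and 320 ± 25.1 FPKM in WT (SD, n = 3 each), both named for that reason. The 4 with the smallest p were Zbtb16, Dusp1, Sgk1 and Ddit4, with adjusted p from 0.473 to 0.593. Zbtb16, a zinc finger gene, was 16.8, 9.21 and 15.9 FPKM in KO and 12.5, 11.0 and 4.09 FPKM in WT. The phosphatase gene Dusp1 was 8.84 ± 0.962 FPKM in KO and 7.33 ± 2.47 FPKM in WT, the kinase gene Sgk1 21.6 ± 2.82 FPKM in KO and 17.5 ± 7.34 FPKM in WT, and the stress gene Ddit4 4.09 ± 1.59 FPKM in KO and 2.92 ± 1.06 FPKM in WT (SD, n = 3 each). For all 4, KO and WT libraries overlapped.

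None of the 10 temperature-responsive genes was called by limma, and 3 had an unadjusted p under 0.05, where 15.2% of all loci did. KO and WT lay apart for 3 of the 10, with KO above WT for 2 and below it for 1. Of all 10956 loci tested, 22.1% did not overlap, with KO above WT at 1828 and below it at 596. The list median was 0.26, with 6 positive and 4 negative differences. The chaperone gene Hsp90aa1 was 239, 176 and 267 FPKM in KO and 96.6, 124 and 103 FPKM in WT (log2 difference 1.06, SE 0.22, adjusted p = 0.164). Hspa5, which encodes the chaperone BiP of the endoplasmic reticulum, was 243, 497 and 288 FPKM in KO and 205, 182 and 205 FPKM in WT (adjusted p = 0.314). The small heat shock gene Hspb1 was 1.02 ± 0.101 FPKM in KO and 4.81 ± 4.43 FPKM in WT (adjusted p = 0.306), where WT replicate 2 alone reached 9.93 FPKM. Dnajb1, a co-chaperone gene, was 11.5 ± 0.717 FPKM in KO and 8.68 ± 2.41 FPKM in WT (SD, n = 3 each), with an adjusted p of 0.378. The rest of the list, given to complete it, went both ways, and KO and WT libraries overlapped for each. Log2 differences were 0.82 for Rbm3, 0.32 for Hspa8 and 0.19 for Hsph1. They were -0.40 for Cirbp, -0.37 for Hspa1a and -0.51 for Hspa1b.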

How the data were processed

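Per the file headers, the authors deposited FPKM per gene locus for 6 libraries, with replicates kept apart. The submitters' processing notes name TopHat, edgeR, mm9 and mm10 without roles. The counting tool, the annotation, strandedness and the filter on loci were not given in the sources used here. FPKM divides by transcript length and library total, so abundant transcripts shift all other values, and overlapping genes share reads. Of 21376 symbols shared with GENCODE M21 (GRCm38), 99.5% overlapped the same gene there, and starts were made 1-based by adding 1. At 312 loci no value was given, and these were left out. Values at the floor of 0.001 were set to 0. No column of other samples was present.

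From these values, log2(FPKM + 1) was computed for loci with a mean of at least 1 FPKM, and a linear model with genotype as its single term was fitted to each locus with limma 3.58.1 under R 4.3.3. Tests were two-sided, with variances moderated toward a trend over mean expression, and used Benjamini-Hochberg adjustment over all loci tested and a threshold of 0.05. The procedure was tested on simulated data. The members and gene lists were chosen with earlier results of these data known. Besides the members, the 4 genes with the smallest p of each pathway or cue list are named. Of all list genes, 3 were matched through RefSeq synonyms (GRCm38.p6). Low values were checked for whole-number ratios to WT replicate 1, which held for 61.7% to 65.9% of loci under 0.3 FPKM when deviations of up to 0.02 log2 units were allowed. Alternatives were another pseudocount, no filter, 2 scalings, no trend, a replicate block and leaving out each library.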

Additional observations from a re-analysis of the deposited data

How the results depend on the processing

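None of the 10 clock genes was called under any of the 12 alternatives. Of 119 recomputed log2 differences of these genes, 116 kept their direction. Per1 turned to -0.030 after quantile normalization and to -0.034 without KO replicate 2, and Nr1d1 turned to 0.18 without WT replicate 1. The cause was not tested. The log2 differences with 1 library left out ranged from 0.24 to 0.81 for Arntl, 0.087 to 0.25 for Clock, 0.38 to 1.02 for Npas2, -1.14 to 0.18 for Nr1d1, -0.64 to -0.059 for Nr1d2, -0.034 to 0.44 for Per1, -0.82 to -0.30 for Per2, -0.70 to -0.11 for Per3, -0.71 to -0.18 for Cry1 and -1.27 to -0.05 for Dbp. Unadjusted p was under 0.05 for Arntl without KO replicate 3, Per2 without WT replicate 2 and Nr1d1 without WT replicate 3, and with a pseudocount of 0.1 the difference of Dbp was -1.55. Over all loci, 13 were called, against 6 with no filter (where more loci were tested), 47 with the replicate block and 0 to 242 with 1 library left out. The 0 was without WT replicate 1, by limma, with 940 loci at an unadjusted p under 0.05, and the 242 was without KO replicate 2, of which 197 were higher in KO. With all 6 libraries, higher calls were 2 of 13 as deposited, and 0 of 13 and 0 of 14 after median-of-ratios and quantile scaling, which moved the median of all loci from 0.15 to 0.02 and -0.0040. Deviations across loci correlated at -0.08, 0.16 and 0.16 between same-numbered libraries and at -0.26 to 0.17 between other-numbered ones. These values do not settle whether the numbers pair libraries. The labels do not say so, and the replicate block was kept as an alternative. The nearest library over the clock genes was of the other genotype for all 6 libraries with a pseudocount of 0.1 and after either scaling too, alternatives chosen after seeing the data. Low values limit Dbp, Ciart and Npas2 most.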
